A study of Mus musculus with 4 samples.

Results

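Glycolysis splits glucose into pyruvate in the cytosol. Pyruvate is then either reduced to lactate by lactate dehydrogenase, and carried across the membrane by monocarboxylate transporters, or drawn into the mitochondrion and oxidised by pyruvate dehydrogenase, which the pyruvate dehydrogenase kinases switch off. In the brain, neurons are known for oxidising pyruvate and for taking up lactate, and astrocytes for releasing it. The genes described here are the 36 that encode the glucose transporters, glycolytic enzymes, lactate dehydrogenases, monocarboxylate transporters and pyruvate dehydrogenase components of this route. They were matched by symbol, and were found under 37 of the 55487 entries of the expression table, since Aldoa stood under 2 identifiers. Of these entries, 34 reached at least 1 TPM (a length-corrected transcript abundance) in at least 2 of the 4 libraries and were tested, among 26055 genes in all. Hk2, Hk3 and Pdk4 did not and were not tested.

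The RNA came from neuronal nuclei of adult wild-type (WT) mouse brain, olfactory bulb left out, which had been sorted by fluorescence into an excitatory and an inhibitory fraction. There were 2 libraries of each fraction. The sample titles name no batch, so whether the libraries were prepared together is not known here. Nothing in the sources used here gives the strain, sex, exact age, sort markers or whether animals were pooled. Nor do the labels tie replicates to separate animals, and the p-values cover the spread between these libraries alone, which may be technical.

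Of the 34 tested entries, 4 were higher in excitatory nuclei and 0 in inhibitory nuclei (limma, Benjamini-Hochberg adjusted p under 0.05). These were Hkdc1, a hexokinase-like enzyme, Pdk1, a kinase that switches off pyruvate dehydrogenase, Slc16a7, the monocarboxylate transporter MCT2 of neurons, and Ldha, the lactate dehydrogenase subunit typical of glycolytic tissue. Their mean TPM stood 24.1-fold, 2.21-fold, 2.03-fold and 1.41-fold above the inhibitory mean. Among all 26055 genes tested, 12.0% were called, 5.43% toward excitatory and 6.62% toward inhibitory nuclei, against 11.8% of the members. The members' share is close to that background. Hkdc1 was under 1 TPM in both inhibitory libraries and entered the test only through the excitatory ones. At an unadjusted p under 0.05 stood 8 of the 34 entries, and 27.8% of all genes. The excitatory and inhibitory libraries did not overlap for 16 of the 34 (47.1%, against 56.2% of all genes), with the excitatory pair above in 9 (23.0% of all genes) and the inhibitory pair above in 7 (33.3% of all genes). With quantile normalization, 5 members were called toward excitatory and 1 toward inhibitory nuclei. With any 1 library left out, 0 members and 0 of all genes were called by limma, on 1 residual degree of freedom. Smallest adjusted p-values were then between 0.0631 and 0.0716 for the members, of which 4 to 8 had an unadjusted p under 0.05. The smallest p that exact permutation of 2 and 2 libraries allows is 0.333.

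The libraries themselves followed their labels for most, not all, marker genes. Summed TPM of 7 excitatory markers stood at 882 and 975 in excitatory against 289 and 307 in inhibitory libraries, and 6 of the 7 were called toward excitatory nuclei. The exception was Slc17a6, the glutamate transporter of thalamic and brainstem neurons, which was higher in inhibitory nuclei. Summed TPM of 7 inhibitory markers stood at 141 and 127 against 791 and 774, and all 6 of those tested were called toward inhibitory nuclei. Both fractions therefore held transcripts of the other class. Markers of other cells were present in every library, with summed TPM of 43.4 to 77.4 for 8 astrocyte, 250.3 to 402 for 6 oligodendrocyte, 13.5 to 27.6 for 4 oligodendrocyte precursor, 57.6 to 83.6 for 6 microglia and 6.08 to 8.30 for 6 endothelial markers. None of these lists had a call (0 of 8, 0 of 6, 0 of 4, 0 of 6 and 0 of 1 tested). Of all genes tested, 12.0% were called. No marker was listed at 0 in all 4 libraries. The astrocyte sums (77.4 and 65.2 against 55.8 and 43.4) and the precursor sums (27.6 and 18.3 against 16.9 and 13.5) stood above in both excitatory libraries. So did the endothelial sums (7.53 and 8.30 against 6.08 and 6.91). These were mostly Tek (5.13 and 6.39 against 4.66 and 5.44 TPM), whose libraries overlapped. The other 5 endothelial markers were under 1 TPM in all 4 libraries, and Cldn5 and Slco1a4 were at 0 in both inhibitory ones. The microglia sums (62.8 and 57.6 against 83.6 and 68.2) stood above in both inhibitory libraries, and the oligodendrocyte sums overlapped. The part of these cells in the results on the members was not tested. In bulk samples, fewer cells of a type and less RNA per cell cannot be told apart.

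The members were abundant transcripts with small differences. Their median mean level was 62.9 TPM, against 12.2 TPM for all genes tested, and together they took between 0.327% and 0.355% of the TPM of a library (3266 to 3546 TPM). Of the 37 entries, 10 had a mean of at least 100 TPM and 28 of at least 10 TPM. Gpi1, which interconverts glucose and fructose phosphates, stood first at a mean of 348 TPM over the 4 libraries, with Aldoa (347), the neuronal enolase gene Eno2 (328), the platelet-type phosphofructokinase Pfkp (309) and the pyruvate kinase Pkm (279) next. The library ranges of neighbours among these 5 overlapped. Hk2 and Pdk4 were the entries with a mean under 1 TPM. The median log2 fold change of the 34 tested entries (excitatory minus inhibitory mean of log2(TPM + 1)) was 0.06, against -0.07 for all genes. A total of 29 of the 34 (85.3%) lay within 0.5 of no change, against 68.3% of all genes, whose median level is lower.

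**Figure D1:**
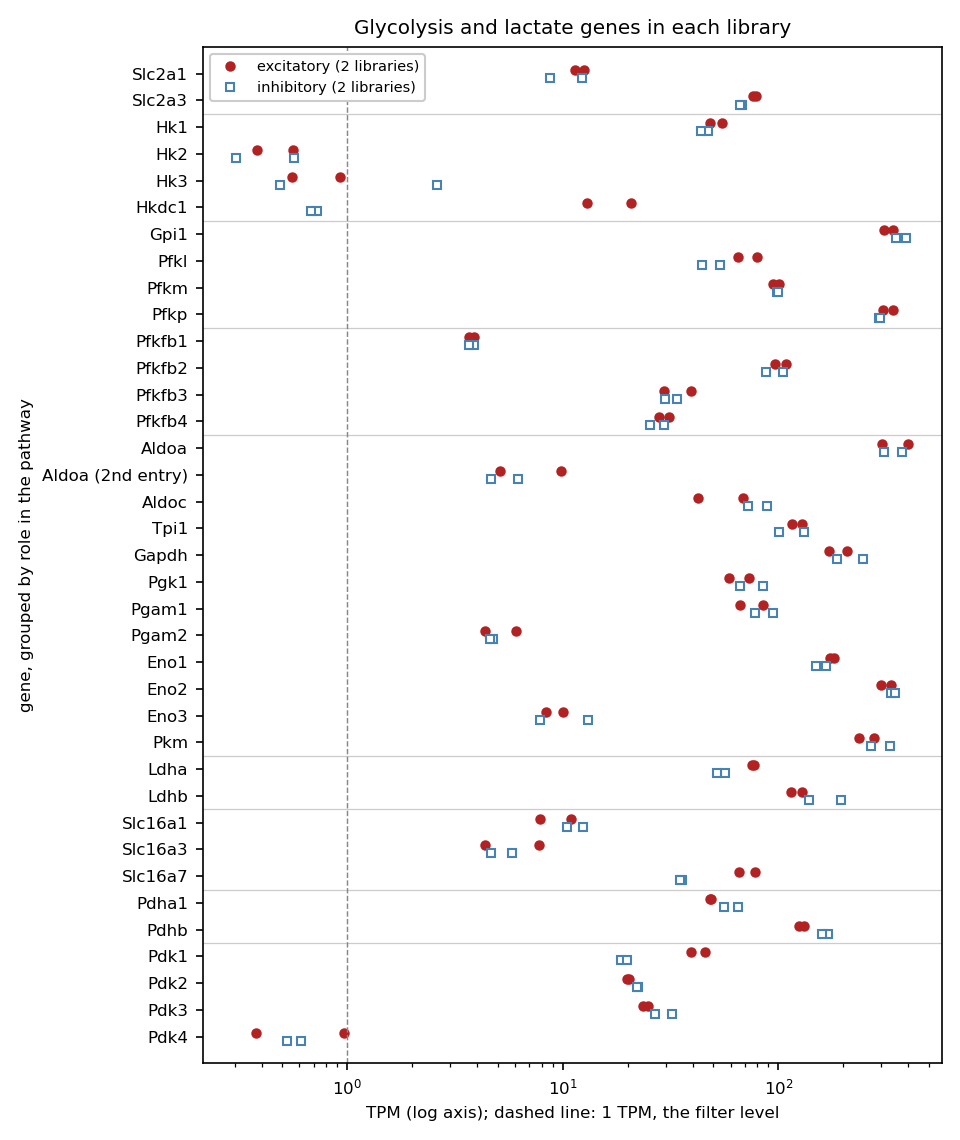
TPM of each glycolysis and lactate gene in the 4 libraries on a log axis, 1 point per library, ordered by pathway step. Hkdc1 is the gene whose excitatory points (12.9 and 20.8) and inhibitory points (0.722 and 0.679) are farthest apart, while those of Gpi1, Aldoa, Eno2, Pfkp and Pkm all sit between 237 and 401.

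Glucose enters brain cells through SLC2A1, the transporter of the blood-brain barrier and glia, and SLC2A3, the high-affinity transporter of neurons. Slc2a3 stood at 76.4 and 78.5 TPM in excitatory and 67.5 and 66.4 TPM in inhibitory libraries. The pairs did not overlap, but the difference of 0.21 ± 0.10 (log2, SE; 95% interval -0.04 to 0.45) did not pass the test (limma adjusted p = 0.242). Slc2a1 stood at 12.5 and 11.4 against 12.3 and 8.76 TPM, and its libraries overlapped. Slc2a3 made up between 84.6% and 88.3% of the summed TPM of the pair in every library.

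Hexokinases commit glucose to the cell by phosphorylating it. HK1 is the constitutive brain enzyme, HK2 the insulin-responsive enzyme of muscle, HK3 an enzyme of blood cells, and HKDC1 a later-described relative with weak hexokinase activity. Hkdc1 (ENSMUSG00000020080, chr10:62383137-62422491, minus strand, mm10) stood at 12.9 and 20.8 TPM in excitatory libraries and at 0.722 and 0.679 TPM in inhibitory libraries. The groups were far apart, and the spread was wider between the excitatory libraries (16.9 ± 5.57, SD, n = 2) than between the inhibitory ones (0.701 ± 0.0304). The log2 fold change was 3.36 ± 0.31 (95% interval 2.59 to 4.12, limma adjusted p = 0.00359). Since Hkdc1 passed the filter only through the libraries where it was high, this p adds nothing to the values themselves. The size on the log2 scale also depends on the pseudocount at such low inhibitory values, from 1.92 with a pseudocount of 5 to 4.37 with one of 0.1. Hk1 stood at 48.1 and 54.8 against 47.3 and 43.6 TPM, a difference of 0.17 ± 0.12 that did not pass the test (limma adjusted p = 0.429). Hk2 stood between 0.306 and 0.566 TPM. Hk3 stood at 0.552 and 0.921 against 2.62 and 0.487 TPM, a spread set by 1 inhibitory library, and it shares exon sequence on the opposite strand with Unc5a (up to 61.0 TPM). The sources used here do not say whether reads were counted by strand.

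The share of each hexokinase shows the same contrast within a library. Hkdc1 made up 20.8% and 27.1% of the summed hexokinase TPM in excitatory libraries and 1.41% and 1.51% in inhibitory ones. Hk1 took 77.4% and 71.2% against 92.4% and 96.7%. For both genes the pairs did not overlap. These shares restate the values above and add no test. The lower Hk1 share follows from the higher Hkdc1 share and is not a separate difference in Hk1. The summed level was 62.2 and 77.0 TPM in excitatory and 51.2 and 45.1 TPM in inhibitory libraries.

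Hk1 lies only 3229 bases from Hkdc1 on the same strand. Supv3l1, a mitochondrial RNA helicase gene, lies 6718 bases from it on the other side, with a log2 fold change of 0.07 ± 0.12 (limma adjusted p = 0.749). None of the other protein-coding genes within 200000 bases of Hkdc1 that were tested was called either. Non-coding entries in that stretch were not looked at.

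Sequence upstream of the start is shown for the called members that had a RefSeq promoter entry (GRCm38.p6), so that their base makeup can be compared. It is given 5′ to 3′ on the strand of the gene, at chr10:62422492-62422707 (minus strand) for Hkdc1, chr7:46845554-46845803 (plus strand) for Ldha and chr2:71872974-71873223 (plus strand) for Pdk1. Capitals mark matches to ACGTG or GCGTG, the cores bound by hypoxia-inducible factor and related factors, read on either strand.
Hkdc1: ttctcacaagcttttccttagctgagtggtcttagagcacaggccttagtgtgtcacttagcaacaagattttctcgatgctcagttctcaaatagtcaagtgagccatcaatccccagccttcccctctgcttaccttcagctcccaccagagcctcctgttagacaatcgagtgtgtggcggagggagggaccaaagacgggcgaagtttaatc
Ldha: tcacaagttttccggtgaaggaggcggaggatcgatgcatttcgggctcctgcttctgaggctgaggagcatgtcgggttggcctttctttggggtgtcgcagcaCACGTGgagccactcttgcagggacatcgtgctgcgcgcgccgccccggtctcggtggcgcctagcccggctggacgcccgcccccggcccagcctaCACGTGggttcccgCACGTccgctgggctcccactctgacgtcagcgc
Pdk1: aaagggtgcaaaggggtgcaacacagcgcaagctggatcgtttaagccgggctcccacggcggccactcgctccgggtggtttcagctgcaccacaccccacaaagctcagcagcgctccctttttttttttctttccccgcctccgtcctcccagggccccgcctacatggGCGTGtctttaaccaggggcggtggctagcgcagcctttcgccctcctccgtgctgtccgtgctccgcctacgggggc
The 216 bases of Hkdc1 hold 0 matches. The GC content of the full 250 bases before its start, of which these are a part, is 49.6%. The 250 bases of Ldha hold 5 matches and have a GC content of 67.2%, while those before a second Ldha start (chr7:46846832-46847081, sequence not shown) hold 1 match and have a GC content of 54.4%. CACGTG reads ACGTG on both strands, so 4 of the 5 matches are those of its 2 copies, and the fifth is a single reading on the minus strand at -34 to -30 from the start. The 250 bases of Pdk1 hold 1 match, GCGTG at -78 to -74, and have a GC content of 64.0%. Slc16a7 and Slc2a3 were not among the entries.

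In the 250 bases before a RefSeq start, 29 of the 34 members with an entry (85.3%) held ACGTG or GCGTG on either strand in at least 1 window, against 41.5% of 27025 genes. By motif, the counts were 16 of 34 (47.1%, against 18.5%) for ACGTG and 22 of 34 (64.7%, against 30.9%) for GCGTG. Members can have several starts, and counted by window the share with either motif was 73.6% of 53, against 38.6% of 32851. Median GC content was 58.8% in the members' windows and 52.4% in all windows, and its part in these shares was not tested. The study concerned the transcription factor EGR1, whose motif GCGTGGGCG contains GCGTG. It was found in the windows of 2 of 34 members (5.88%, against 0.622% of all genes), Pfkp at -23 to -15 and Pfkfb2 at -44 to -36. Neither of these genes was called between the fractions. A match of letters is a description and shows no binding.

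Phosphofructokinase makes the committed step and is built from muscle (Pfkm), liver (Pfkl) and platelet (Pfkp) type subunits. Pfkl stood at 65.0 and 79.3 TPM in excitatory libraries and 44.3 and 53.5 TPM in inhibitory ones. The pairs did not overlap, and the log2 difference was 0.55 ± 0.15 (95% interval 0.18 to 0.92). It missed the threshold (limma adjusted p = 0.0698), and passed it with median-ratio scaling (adjusted p = 0.0333) and with quantile normalization (adjusted p = 0.0470). Pfkm stood at 94.6 and 101 against 99.0 and 99.3 TPM, a log2 difference of -0.02 ± 0.10. Pfkp stood at 307 and 339 against 292 and 297 TPM, at 0.13 ± 0.10 (limma adjusted p = 0.458). Pfkp supplied between 65.3% and 67.1% of the subunit TPM in every library, and Pfkl 13.9% and 15.3% against 10.2% and 11.9%. Pfkm shares exon sequence with Senp1 and Pfkp with Pitrm1, each on the opposite strand.

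The PFKFB enzymes make and break fructose 2,6-bisphosphate, the activator of phosphofructokinase. PFKFB3 favours its synthesis and is known to be degraded in neurons at the protein level, which transcript values do not show. Pfkfb3 stood at 29.4 and 39.5 TPM against 29.7 and 33.7 TPM. Pfkfb2, the heart-type enzyme, took between 59.4% and 61.2% of the family's TPM, at 96.2 and 109 against 87.9 and 105 TPM. Pfkfb4 stood at 27.9 and 31.1 against 25.5 and 29.4 TPM. Pfkfb1, the liver type, stood between 3.68 and 3.89 TPM and shares exon sequence with Apex2 (up to 99.9 TPM) on the opposite strand. Pfkfb2 likewise shares exon sequence with Yod1 (up to 14.4 TPM) on the opposite strand. None of the 4 genes passed the test, the pairs overlapped for each, and the log2 differences ran from -0.0027 to 0.10. The widest 95% interval among the 3 genes above 10 TPM was -0.33 to 0.53, for Pfkfb3.

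**Figure D2:**
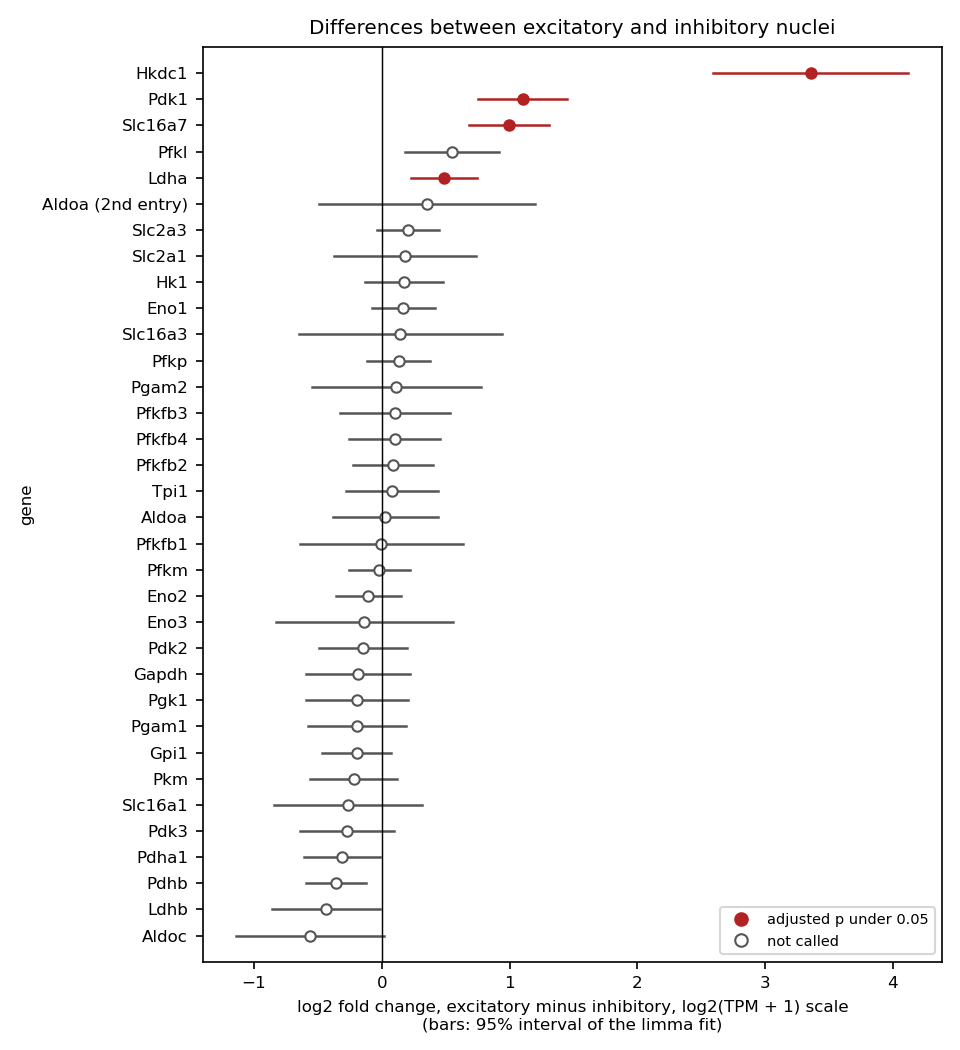
Log2 fold change (excitatory minus inhibitory mean of log2(TPM + 1)) of the 34 tested entries with 95% intervals, coloured by call. Hkdc1 (3.36), Pdk1 (1.10), Slc16a7 (1.00) and Ldha (0.49) were called, and the other 30 intervals belong to entries that did not pass the adjusted threshold.

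From aldolase to pyruvate kinase, 0 of 12 tested entries were called, against 12.0% of all genes tested. A list this short is not set apart from all genes by this count. Gpi1, which acts before phosphofructokinase, was not called either, at 308 and 341 against 352 and 392 TPM (log2 difference -0.20 ± 0.11, limma adjusted p = 0.310). Aldolase cleaves fructose 1,6-bisphosphate. Aldoa stood at 401 and 301 against 374 and 311 TPM, and the libraries of a group differed by more than the groups did (0.03 ± 0.17). Its second identifier, a separate entry upstream on the same strand, stood between 4.62 and 9.81 TPM. Aldoc, the aldolase typical of astrocytes and Purkinje cells, stood at 68.6 and 42.2 against 88.3 and 72.3 TPM. Its inhibitory pair lay above, with a log2 difference of -0.56 ± 0.24 (95% interval -1.14 to 0.01, limma adjusted p = 0.189). The difference was -0.90 without excitatory replicate 1 and -0.22 without excitatory replicate 2. The astrocyte marker sum given above was higher in excitatory libraries, and the part of astrocyte RNA in the Aldoc values was not tested. Aldoc made up 14.4% and 12.0% of aldolase TPM in excitatory and 18.9% and 18.7% in inhibitory libraries.

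Triosephosphate isomerase (Tpi1) stood at 129 and 116 against 131 and 101 TPM. Gapdh, which makes the first NADH of the route and is often taken as a reference gene, stood at 208 and 172 against 248 and 187 TPM. The difference for Gapdh was -0.19 ± 0.17, and its 95% interval of -0.59 to 0.22 bounds what these libraries could show. Phosphoglycerate kinase (Pgk1), which makes ATP, stood at 73.1 and 58.9 against 84.5 and 66.7 TPM, and the mutase Pgam1 at 84.4 and 66.7 against 94.7 and 78.0 TPM. Their log2 differences were both -0.19, with overlapping pairs. Pgam2, the muscle mutase, stood between 4.35 and 6.03 TPM. Gapdh shares exon sequence with Iffo1 (up to 66.8 TPM) and Tpi1 with Spsb2 (up to 4.59 TPM), each on the opposite strand. So does the more abundant Aldoa entry with Fam57b (up to 45.1 TPM).

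Enolase makes phosphoenolpyruvate. Eno1, the ubiquitous form, stood at 180.4 and 174 against 166 and 149 TPM, pairs that did not overlap, with a log2 difference of 0.17 ± 0.10 (limma adjusted p = 0.341). Eno2, the neuron-typical form, stood at 298 and 335 against 332 and 347 TPM, at -0.10 ± 0.11. Eno2 supplied between 61.3% and 68.2% of enolase TPM, and Eno3, the muscle form, between 1.54% and 2.56%. The pyruvate kinase Pkm stood at 278 and 237 against 331 and 269.9 TPM, at -0.22 ± 0.14 (limma adjusted p = 0.375), and overlaps the unclassified transcript Gm49759 on the same strand.

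Lower glycolytic genes have many processed copies in the mouse genome, between which short reads can be divided. For 9 members the table listed 25 copies by name, of which 9 were tested and 1, Tpi-rs9, was called. This Tpi1-related sequence stood at 1.31 and 3.04 TPM in excitatory and 23.7 in both inhibitory libraries. Adding the named copies to Tpi1 gave 132 and 125 against 155 and 131 TPM, an excitatory mean 0.896 times the inhibitory one, against 1.05 for Tpi1 alone. Whether reads of Tpi1 were counted under Tpi-rs9 was not tested, so the TPM of Tpi1 may or may not be affected.

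Lactate dehydrogenase is a tetramer of A and B subunits, of which A is typical of tissues that make lactate and B of tissues that oxidise it. Ldha (ENSMUSG00000063229, chr7:46841475-46855627, plus strand) stood at 77.4 and 75.6 TPM in excitatory libraries and at 56.4 and 52.1 TPM in inhibitory libraries. Each pair was tight (76.5 ± 1.23 against 54.2 ± 3.04, SD, n = 2), and the pairs did not overlap. The log2 fold change was 0.49 ± 0.11 (95% interval 0.23 to 0.75, limma adjusted p = 0.0364). This call was lost without the filter on low values (adjusted p = 0.0678) and with no trend in the variance prior (adjusted p = 0.130). The 3 named Ldha copies summed to 8.14 and 12.5 against 14.7 and 20.9 TPM, and with them added Ldha stood 1.21-fold above the inhibitory mean in place of 1.41-fold. Most of that sum was Ldha-ps2 (6.49 and 10.5 against 12.5 and 18.5 TPM), which lies within Ccdc30 on the same strand, so its TPM need not come from Ldha-like sequence.

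Ldhb stood at 129 and 114 TPM in excitatory and 195 and 139 TPM in inhibitory libraries. The inhibitory pair lay above, with a difference of -0.44 ± 0.17 that did not pass the test (limma adjusted p = 0.169). It was -0.19 without inhibitory replicate 1 and -0.68 without inhibitory replicate 2. Ldhb was the more abundant subunit transcript in all 4 libraries. The ratio of Ldha to Ldhb TPM was 0.599 and 0.663 in excitatory and 0.290 and 0.374 in inhibitory libraries, and Ldha made up 37.5% and 39.9% against 22.5% and 27.2% of the sum. The sum itself overlapped between the fractions (206 and 189.7 against 251 and 191 TPM). No protein-coding gene within 200000 bases of Ldha that was tested was called, and the testis-type Ldhc, 5576 bases away, stood at or under 0.645 TPM.

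Monocarboxylate transporters move lactate and pyruvate with a proton. MCT1 (Slc16a1) is typical of endothelium and glia, MCT4 (Slc16a3) of lactate-exporting cells such as astrocytes, and MCT2 (Slc16a7), which has a high affinity, of neurons. Slc16a7 (ENSMUSG00000020102, chr10:125219270-125389465, minus strand) stood at 65.7 and 77.8 TPM in excitatory libraries and at 35.9 and 34.9 TPM in inhibitory libraries. Every excitatory value was above every inhibitory one (71.8 ± 8.53 against 35.4 ± 0.683, SD, n = 2), and the log2 fold change was 1.00 ± 0.13 (95% interval 0.69 to 1.31, limma adjusted p = 0.00759). The call held in all 8 settings that kept the 4 libraries. Gm47862, an unclassified transcript of up to 6.08 TPM, shares exon sequence with it on the opposite strand.

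Slc16a1 stood at 11.0 and 7.86 against 12.4 and 10.4 TPM, a difference of -0.26 ± 0.24 (limma adjusted p = 0.535) that ran from -0.48 to -0.05 as each library was left out. Slc16a3 stood at 4.33 and 7.78 against 4.64 and 5.79 TPM, at 0.15 ± 0.32 (limma adjusted p = 0.826). Both were low beside Slc16a7, and the pairs overlapped. Slc16a7 took 81.1% and 83.3% of the summed TPM of the 3 transporters in excitatory and 67.8% and 68.3% in inhibitory libraries. Slc16a1 took 13.5% and 8.41% against 23.4% and 20.4%. A higher Slc16a7 share by itself lowers that of Slc16a1, and these shares add no test.

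**Figure D3:**
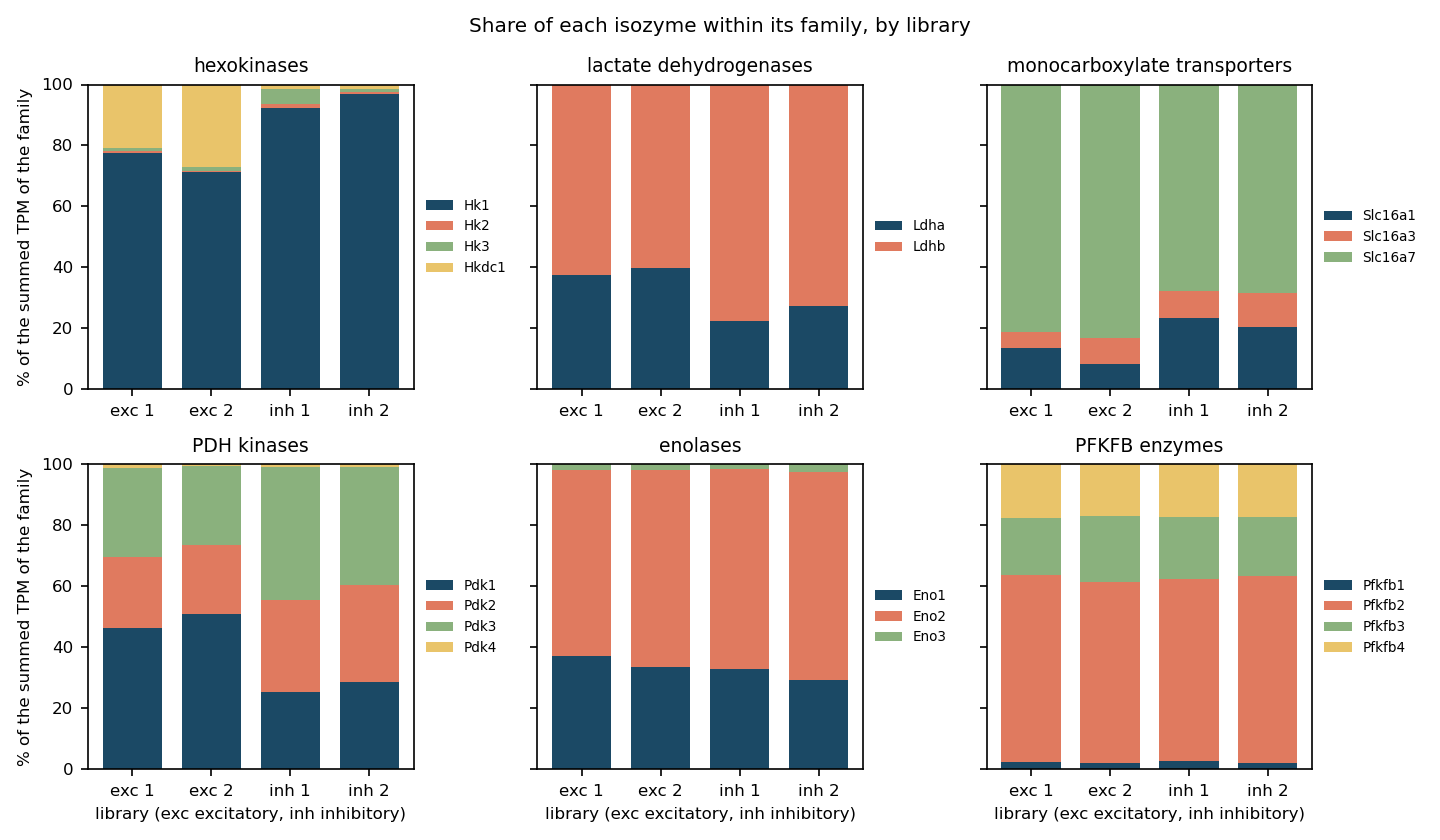
Share of the summed TPM of a family (percent, 1 stacked bar per library) taken by each member, for the hexokinases, lactate dehydrogenases, monocarboxylate transporters, pyruvate dehydrogenase kinases, enolases and PFKFB enzymes. Hkdc1 (20.8% and 27.1% against 1.41% and 1.51%), Ldha (37.5% and 39.9% against 22.5% and 27.2%), Slc16a7 (81.1% and 83.3% against 67.8% and 68.3%) and Pdk1 (46.3% and 50.9% against 25.3% and 28.6%) take a larger share in both excitatory libraries.

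Pyruvate dehydrogenase turns pyruvate into acetyl-CoA. Pdha1, the catalytic alpha subunit, stood at 48.9 and 48.2 TPM in excitatory and 65.3 and 56.1 TPM in inhibitory libraries (log2 difference -0.31 ± 0.12, limma adjusted p = 0.161). Pdhb, the beta subunit, stood at 124 and 132 against 169 and 159.8 TPM (-0.36 ± 0.10, limma adjusted p = 0.0685). For both subunits the inhibitory pair lay above without overlap, and neither passed the test. Pdhb passed it with quantile normalization (-0.38, adjusted p = 0.0376). Pdha1 shares exon sequence with Map3k15 (up to 5.04 TPM) on the opposite strand.

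The pyruvate dehydrogenase kinases phosphorylate the alpha subunit and so stop the complex. Pdk1 (ENSMUSG00000006494, chr2:71873224-71903858, plus strand), a known target of hypoxia-inducible factor, stood at 39.3 and 45.8 TPM in excitatory and 18.7 and 19.8 TPM in inhibitory libraries. Both excitatory values were above both inhibitory ones (42.6 ± 4.61 against 19.2 ± 0.785, SD, n = 2). The log2 fold change was 1.10 ± 0.14 (95% interval 0.76 to 1.45, limma adjusted p = 0.00777), and the call held in all 8 settings that kept the 4 libraries. Of its protein-coding neighbours, Itga6 stood at -0.17 ± 0.19 and Rapgef4 at 0.35 ± 0.09 (limma adjusted p = 0.0616), neither called.

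Pdk2, the most widespread kinase, stood at 19.8 and 20.3 against 22.4 and 22.0 TPM, and Pdk3, a kinase of brain and testis, at 24.8 and 23.5 against 32.2 and 26.8 TPM. Both inhibitory pairs lay above, but the differences of -0.14 ± 0.14 and -0.27 ± 0.15 did not pass the test. Pdk4, which is induced by fasting in muscle and liver, stood between 0.376 and 0.966 TPM. Pdk1 made up 46.3% and 50.9% of kinase TPM in excitatory libraries and 25.3% and 28.6% in inhibitory ones. Pdk3 made up 29.2% and 26.1% against 43.6% and 38.8%. A higher Pdk1 share by itself lowers that of Pdk3, and these shares add no test. The kinase sum was 84.8 and 90.01 against 73.9 and 69.2 TPM.

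Around the members, 9 lists of related genes held 113 genes, of which 95 were tested and 5 were called, 1 toward excitatory and 4 toward inhibitory nuclei. That is 5.26%, below the 12.0% of all genes. With median-ratio scaling the split was 5 toward excitatory and 4 toward inhibitory nuclei, and with quantile normalization 4 and 4. Without the filter 2 remained called, Slc25a13 among them. The median log2 fold change was -0.13, against -0.07 for all genes.

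Of other isozymes of the same steps, 9 were tested. The lactate dehydrogenase D gene Ldhd and the ADP-dependent glucokinase gene Adpgk had log2 differences of -0.55 and -0.37 and were not called. Of 7 other sugar transporters tested, 0 were called by limma, and 2 had an unadjusted p under 0.05. Among all genes tested these shares were 12.0% and 27.8%. Slc2a9, a urate carrier, stood at 2.63 and 3.31 against 0.859 and 0.269 TPM (1.36 ± 0.34, limma adjusted p = 0.0522). Slc2a6 and the sugar transporter Slc45a1 stood at 0.37 and -0.22.

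Of other carriers of the monocarboxylate family and their partners, 14 were tested. Slc16a9 and neuroplastin (Nptn), a partner of the transporters, had differences of -1.17 and 0.25 and were not called. Of 9 genes for pyruvate entry and for the rest of the dehydrogenase complex, 8 had negative differences and 1 (11.1%) was called. Among all 26055 genes tested, 14928 had negative differences and 12.0% were called. Mpc1, a subunit of the mitochondrial pyruvate carrier, was higher in inhibitory nuclei (101 and 102 against 142 and 146 TPM, log2 fold change -0.50 ± 0.09, limma adjusted p = 0.0239). Pyruvate carboxylase (Pcx) stood at -0.40 and the acetyltransferase subunit gene Dlat at -0.33, both not called.

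NADH shuttles carry the electrons that Gapdh frees into the mitochondrion. Of the 10 shuttle genes tested, 1 (10%) was called, against 12.0% of all genes. Slc25a13, the aspartate-glutamate carrier citrin, was higher in inhibitory nuclei, 5.13-fold by mean TPM (3.45 and 3.15 against 17.1 and 16.8 TPM, log2 fold change -2.06 ± 0.22, limma adjusted p = 0.00464). Gpd1, of the glycerol phosphate shuttle, stood at 0.71 ± 0.18 (limma adjusted p = 0.0566) and the malate carrier Slc25a11 at -0.60 ± 0.17 (limma adjusted p = 0.0792). Of 20 glycogen genes tested, 1 was called (5%, against 12.0% of all genes). This was Phka1, the muscle-type regulatory subunit of phosphorylase kinase, at 12.6 and 10.04 against 24.3 and 31.0 TPM (-1.22 ± 0.20, limma adjusted p = 0.0166). Its liver-type relative Phka2 stood at 0.39 ± 0.10 (limma adjusted p = 0.0607) and the phosphoglucomutase Pgm1 at -0.50.

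None of 8 pentose phosphate genes (2 with an unadjusted p under 0.05), 3 gluconeogenesis genes (1) or 15 hypoxia and energy regulators (2) was called by limma. Among all genes tested, 12.0% were called and 27.8% had an unadjusted p under 0.05. Counts this small do not set these lists apart from all genes. Transketolase (Tkt) stood at -0.50 ± 0.12 (limma adjusted p = 0.0550), glucose-6-phosphate dehydrogenase (G6pdx) at -0.60 and 6-phosphogluconate dehydrogenase (Pgd) at -0.26. The glucose-6-phosphatase gene G6pc3 stood at -0.71, the transporter Slc37a4 at 0.25 and the mitochondrial Pck2 at -0.10. The coactivator gene Ppargc1a stood at -0.57 ± 0.16 (limma adjusted p = 0.0735), and the AMP-activated kinase subunits Prkaa1 and Prkaa2 at -0.44 and 0.34.

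**Figure D4:**
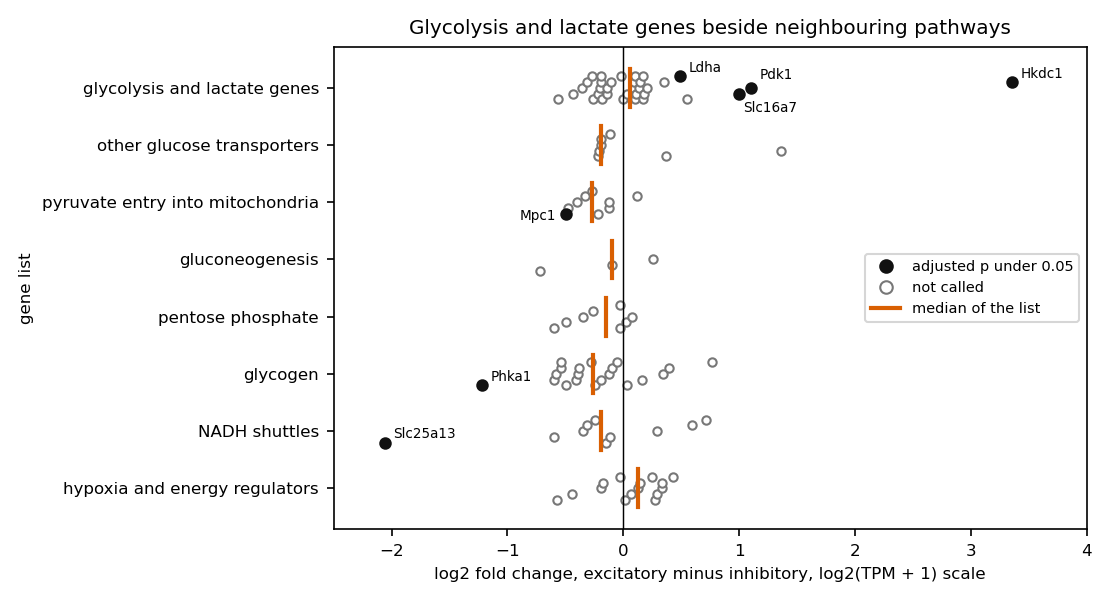
Log2 fold change (excitatory minus inhibitory mean of log2(TPM + 1)) of the members and of the tested genes of 7 of the 9 related lists, 1 point per gene, with called genes filled and named and the median of each list as a bar. Slc25a13 (-2.06), Phka1 (-1.22) and Mpc1 (-0.50) lie toward inhibitory nuclei.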

How the data were processed

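RNA from sorted nuclei, after removal of ribosomal RNA, went into directional libraries that were sequenced in paired-end mode, per the labels' protocols. The authors deposited TPM values, 1 column per library, made with fastp 0.23.4, HISAT2 2.2.1, Bowtie2 2.3.5, StringTie 2.2.1 and genome build mm10, per the submitters' processing notes. For the tools' roles, the annotation and whether strand was used in counting: not given in the sources used here. TPM sums to about the same total in each column (999833 to 999891) and keeps no depth, so depth is unknown and no counting interval was computed. Each library listed 32207 to 32836 genes above 0.

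Groups came from the sample titles. Values were taken as log2(TPM + 1), which understates the change of low genes, for those 26055 genes that reached 1 TPM in at least 2 libraries. Groups were compared with limma 3.58.1 in R 4.3.3 (variance trend, 2 residual and 4.04 prior degrees of freedom, two-sided), with Benjamini-Hochberg adjustment over all genes tested and a threshold of 0.05. The steps were tested on simulated data. A fold is a ratio of mean TPM. Positions came from GENCODE M21, in which all 37 entries matched, and promoter windows from RefSeq (GRCm38.p6), in which 34 of 36 symbols matched. Figures were drawn with matplotlib 3.10.9.

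All members were reported. Of each related list, called genes and the 3 with the smallest p were named, except for some genes that are not reported here. The members and lists were chosen with earlier results of these data known. The alternatives were pseudocounts of 0.1 and 5, no filter or a filter of 5 TPM, median-ratio scaling, quantile normalization, no variance trend, a replicate block and leaving out each library.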

Additional observations from a re-analysis of the deposited data

How the results depend on the processing

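With 2 libraries a group and unknown depth, small differences could not be resolved, and a gene not called is not shown to be equal. Median-ratio scaling and quantile normalization moved the median log2 fold change of all genes from -0.07 to -0.01. Pseudocounts of 0.1 or 5 and a filter of 5 TPM left 4 members called. All genes called fell to 1406 without the filter, from 3139. Related-list calls were 2 without the filter, 9 with median-ratio scaling, 8 with quantile normalization and 10 with the replicate block, against 5. Ldha kept its log2 fold change of 0.49 but lost its call without the filter and with no variance trend. Among members not called, the sign turned with median-ratio scaling for Pfkm (0.048) and Pfkfb1 (0.051), and with quantile normalization for Pfkfb1 (0.13) and Aldoa (-0.032). Leaving out 1 library at a time left 0 members, 0 related genes and 0 of all genes called (5311 to 5812 with an unadjusted p under 0.05), a fit with 1 residual degree of freedom in which the lone library is assumed to vary like the other group. Log2 fold changes then ran from 3.03 to 3.68 (Hkdc1), 1.00 to 1.21 (Pdk1), 0.88 to 1.12 (Slc16a7) and 0.43 to 0.55 (Ldha). The sign turned in at least 1 of these fits for Pfkm (-0.066 to 0.029), Aldoa (-0.18 to 0.23), its second entry (-0.060 to 0.77), Pgam2 (-0.083 to 0.31), Pfkfb1 (-0.034 to 0.029), Pfkfb2 (-0.036 to 0.22), Pfkfb3 (-0.11 to 0.31), Pfkfb4 (-0.00049 to 0.20), Slc16a3 (-0.21 to 0.50), Gapdh (-0.39 to 0.017), Slc2a1 (-0.041 to 0.41), Tpi1 (-0.10 to 0.27) and Eno3 (-0.47 to 0.20). The replicate block called 8 members, 5 toward excitatory and 3 toward inhibitory nuclei, adding Pfkl, Aldoc, Ldhb and Pdhb. Samples share only a replicate number, and deviations of same-numbered samples correlated at 0.0957 across 26055 genes. Except as stated, the cause of these changes was not tested.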

Other observations

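Within each fraction, most lower glycolytic transcripts differed in the same direction between libraries. Of the 12 entries from aldolase to pyruvate kinase, 9 (75%) stood higher in replicate 1 than in replicate 2 in both fractions, against 19.8% of all genes tested. Another 2 (16.7%) stood higher in replicate 2 of both, against 37.4% of all genes. The 12 entries are also more abundant, with a median mean level of 100 TPM against 12.2 TPM for all genes. Of all 34 members tested, 16 (47.1%) stood higher in replicate 1 of both fractions and 11 (32.4%) in replicate 2 of both, against 37.4% of all genes for the latter. The sublist was singled out after its values were seen. Gapdh, for example, stood at 208 against 172 TPM between the excitatory and 248 against 187 TPM between the inhibitory libraries. The oligodendrocyte marker sum also stood higher in replicate 1 of both fractions (402 against 328 and 345 against 250.3 TPM). So did the astrocyte sum (77.4 against 65.2 and 55.8 against 43.4 TPM). The precursor, microglia, mural, ependymal and choroid plexus and inhibitory neuron sums lay in that direction too. The excitatory neuron sum (882 against 975 and 289 against 307 TPM) and the endothelial sum stood higher in replicate 2 of both fractions. The part of other cells in this pattern was not tested, and replicate numbers have no order.

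The ratio of Pdk1 to Pdha1 TPM, the kinase transcript against that of its substrate subunit, stood at 0.803 and 0.95 in excitatory and 0.286 and 0.352 in inhibitory libraries. The ratio of Slc16a7 to Slc16a1 TPM stood at 5.99 and 9.90 in excitatory and 2.90 and 3.34 in inhibitory libraries. In each ratio both excitatory values lay above both inhibitory ones, the smallest exact permutation p being 0.333. Since Pdk1 and Slc16a7 were already called toward excitatory nuclei, these ratios restate the values above and add no test.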
